A study of Canis lupus familiaris with 6 samples.

Results

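Amino acid transporters of the solute carrier (SLC) families were examined in MDCK cells, an epithelial line from dog kidney, on single-colour Agilent canine expression arrays. The members were the genes whose name in the array design was SLC1A, SLC3A, SLC6A, SLC7A, SLC32A, SLC36A, SLC38A or SLC43A followed by digits. This gave 52 genes with 74 probes, out of 43603 non-control probes. Of the names in the design, 12532 matched a RefSeq gene table. The shares over all names given below also take in names without such a match (19645 tested names). SLC7A6OS, which shares the start of its name with a transporter but is none, was left out.

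Every sample consisted of β-cat ΔN/RasV12 cells, that is MDCK cells with an mCherry-tagged β-catenin Δ131 (a β-catenin without its N-terminus) and a GFP-tagged, oncogenic RasV12 switched on by tetracycline through a pTR vector. In the Single culture group (3 arrays) these cells grew alone. In the Mix culture group (3 arrays) they grew with 10 cells carrying mCherry-β-catenin Δ131 but no RasV12 for each RasV12 cell. Both groups received tetracycline for 24 h, after which the GFP-positive fraction was collected by flow cytometry for Cy3 labelling of its total RNA. All groups therefore share the β-catenin mutant, RasV12, tetracycline and the sort, and there was no array of parental MDCK cells or of the surrounding cells. Surrounding cells left after the sort would be cells of the same line, so that their share has no marker of its own here. The comparison of the groups asks which transcripts of the same transformed cell differ with its neighbours.

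Amino acids cross membranes on carriers that differ in substrate, in coupling to sodium and in whether they exchange one amino acid for another. SLC1 proteins carry acidic amino acids or exchange neutral ones, SLC38 proteins carry glutamine and other small neutral amino acids with sodium, and several SLC7 light chains reach the membrane only when linked to an SLC3 heavy chain. In kidney epithelium such carriers reabsorb amino acids from the filtrate and feed the cell, and in proliferating cells several of them are induced when amino acids are short. The SLC6 family is mixed: besides carriers of taurine, betaine, glycine or proline, the name rule takes in carriers of monoamines and of creatine.

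The results below turn on 8 genes, so the part of the transcript that the array read is shown for each. The first 30 of the 60 bases of the brightest tested probe follow, 5′ to 3′ and in lower case, as the scanner files give them; no base is emphasised.
SLC1A1: gcctcttaacacactgtgctgttaactcat
SLC1A2: ccccatcatttttactctcctcacccatag
SLC1A4: aatactgtcgaatactgttcacccatgact
SLC1A5: tcctcaaacagtgtccaagacctgctgggg
SLC7A11: ctgcatactatctctttattatctgggaca
SLC38A2: tatatagtgtaaatacccccactctgctgt
SLC38A3: ttcatcttccctgccatcttctatttccgc
SLC38A9: ccgtctgacatggccaaaattaatctttca

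On the CanFam3.1 build that the files name, these probes lie at chr1:92978173-92978232 (SLC1A1, plus strand), chr18:32708595-32708654 (SLC1A2, plus strand), chr10:64508189-64508248 (SLC1A4, plus strand) and chr1:109160725-109160784 (SLC1A5, plus strand). The others lie at chr19:4358021-4358080 (SLC7A11, plus strand), chr27:8068848-8068907 (SLC38A2, plus strand), chr20:39109422-39109481 (SLC38A3, minus strand) and chr2:42922555-42922614 (SLC38A9, minus strand). The array design assigns each to a transcript of the named gene. Exon and UTR annotation of that build was not used here. The probes for SLC1A4 and SLC1A5, and those for SLC38A1 and SLC38A2, belong to related but separate genes, and cross-hybridisation between them was not tested.

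Signals are given as background-subtracted fluorescence intensity, or as normalised log2 signal, which is log2 of that intensity minus the 75th percentile of the array. A change is always the mix culture mean minus the single culture mean on this log2 scale, and a fold is mix culture over single culture. Testing was limited to 26621 probes that the scanner software marked as well above background on all 3 arrays of one group or of both. A call is an adjusted p under 0.05 (limma, two-sided, Benjamini-Hochberg over all 26621 probes). Errors are SDs over 3 arrays unless called an SE. Each SE is from the fit without a block, also where the adjusted p beside it is from the fit with the slide. The labels do not say whether the arrays of a group came from separate cultures, so the p-values measure the spread between these arrays, which may be partly technical.

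The 6 arrays lay on 2 slides. Slide 1 held replicate 1 of each group and was scanned at 3 µm, and slide 2 held the other 4 arrays and was scanned at 5 µm. With the group in the model, 46.81% of the tested member probes and 47.17% of all tested probes differed between the slides. As each slide held both groups, the calls are also given with the slide as a block, and values within each slide are added for most named genes. Between 61.1% and 65.7% of the spots were well above background, and no spot was saturated. The cells had the markers of their label: the 6 epithelial markers were all tested, with a summed linear normalised level of 404 to 497 in single culture and 318 to 407 in mix culture. 5 of the 6 were lower in mix culture, among them CDH1 (E-cadherin) with a log2 change of -0.47 (limma adjusted p = 0.384; 0.0444 with the slide as a block), and their part in the transporter differences was not tested. The 2 of 4 leukocyte markers that were tested summed to 0.226 to 0.346 and 0.166 to 0.338, with PTPRC and ITGAM not tested. The 3 of 4 fibroblast markers that were tested summed to 0.751 to 1.73 and 0.644 to 1.36, and the 2 of 3 endothelial markers to 0.61 to 0.771 and 0.555 to 0.669. These low sums do not show such markers to be absent. COL1A2, the brightest of them, had mean normalised log2 signals of -0.19 in single culture and -0.40 in mix culture. It and PECAM1 were well above background on all 6 arrays. The epithelial sum is mostly KRT18, with means of 8.37 and 7.97.

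The first question was which transporters were detected. Of the 74 probes, 45 were well above background on all 6 arrays, 9 on some and 20 on none. Altogether 47 probes of 33 genes could be tested, and 19 genes could not. By the share of probes well above background on all arrays, SLC43 (3 of 3) and SLC38 (12 of 16) came first. In SLC32, the vesicular carrier of inhibitory transmitters, 0 of 2 probes were, and in SLC3 1 of 3. SLC36 had 2 of 4, SLC7 9 of 16, SLC6 13 of 23 and SLC1 5 of 7.

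**Figure D1:**
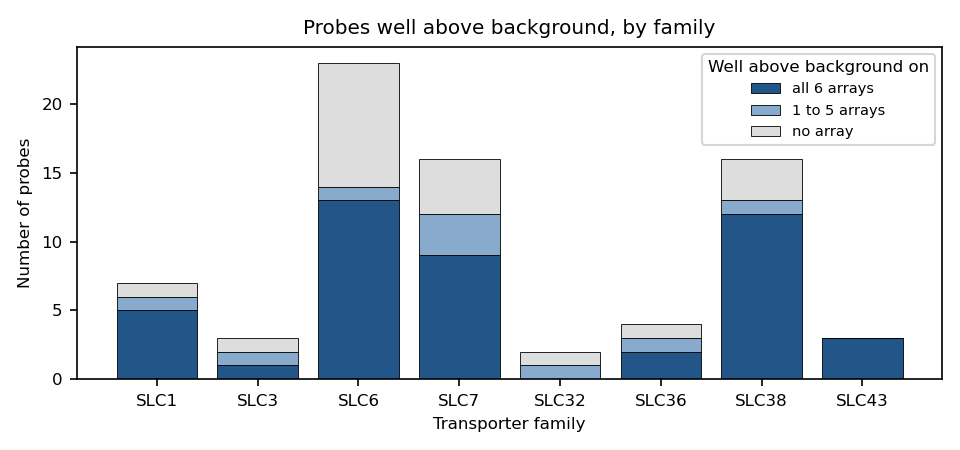
Number of probes (vertical axis) of each transporter family (horizontal axis), split by whether the probe was well above background on all 6 arrays, on 1 to 5, or on none. SLC38 and SLC43 probes were mostly detected on every array, whereas 9 of the 23 SLC6 probes were detected on none.

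The untested genes comprised the glial glutamate carrier SLC1A3, the heavy chain SLC3A1, the arginine carrier SLC7A2, the light chains SLC7A7, SLC7A8 and SLC7A9, SLC7A14, SLC32A1, SLC36A1, SLC36A3, SLC38A4 and SLC38A11, as well as 7 SLC6 genes (SLC6A2, SLC6A3, SLC6A4, SLC6A7, SLC6A14, SLC6A19 and SLC6A20). SLC6A2, SLC6A3 and SLC6A4 carry noradrenaline, dopamine and serotonin, and SLC6A19 is the neutral amino acid carrier of the proximal tubule brush border. On an array where a probe was not well above background, its level has only an upper bound, so these genes are not shown to be off. Detection also followed the slide for 2 genes: the SLC36A1 probe was well above background on the 4 arrays of slide 2 and on neither array of slide 1, and 1 of the 2 SLC32A1 probes on the 2 arrays of slide 1 alone. SLC36A1 had intensities of 3.5, 6.95 and 5.71 in single culture and 2.74, 7.03 and 5.77 in mix culture, so that the arrays of slide 1 were the low ones in both groups.

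The second question was whether the tested transporters differed between the cultures. Without a block, limma called 0 of the 47 member probes, against 0.883% of all tested probes (235 of 26621). The lowest adjusted p was 0.0723, for SLC1A2, and 9 member probes had an unadjusted p under 0.05, against 2318 of all tested probes. With the slide as a block, 8 of 47 member probes were called (17.02%), each of another gene, against 7.2% of all tested probes. Of the 8, 4 were higher in mix culture (SLC1A1, SLC1A2, SLC38A3 and SLC38A9) and 4 were lower (SLC1A4, SLC1A5, SLC38A2 and SLC7A11). The background of the same fit was 3.98% higher and 3.22% lower. With the replicate number as a block, 3 probes were called (SLC1A2, SLC1A4 and SLC7A11), or 6.383% against 5.26% of all tested probes, and within slide 2 alone 2 were called (SLC1A2 and SLC38A3). The arrays do not show that the replicate number pairs the samples. SLC1A2 passed the filter only through mix culture, the group in which it is high, so its count among the called probes carries no weight of its own. Without it, SLC1A4 and SLC7A11 remain with the replicate block, a share below the 5.26% of all tested probes. Within slide 2, SLC38A3 alone remains. The shares over all tested probes were not corrected for probes of this kind.

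Ranges of the groups did not overlap for 13 of the 47 member probes (27.66%), against 16.5% of all tested probes. For 9 of these mix culture was lower (background 8.66%), and for 4 it was higher (background 7.85%). The 9 count SLC7A5 and SLC38A1 more than once each. The 4 include SLC1A2, which passed the filter only through mix culture, so these counts of probes are not independent of the filter and of repeated probes. Taking the brightest tested probe of each gene, 23 of 33 genes were lower in mix culture and 10 were higher, with a median log2 change of -0.16. The median over all names with 1 probe each was -0.06, and 59.66% of those names were lower. The median of the transporters was -0.11 within slide 1 and -0.21 within slide 2, against -0.064 and -0.056 over all names. The sign was the same on both slides for 25 of 33 genes. This was not counted over all names, so it is not shown to be particular to the transporters. Over the 3 pairs of same-numbered arrays, the median of the 33 genes ranged from -0.35 to 0.00358, so that in 1 pair the median was not below 0. In sorted bulk RNA, fewer cells that express a gene and less RNA per cell cannot be told apart.

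**Figure D2:**
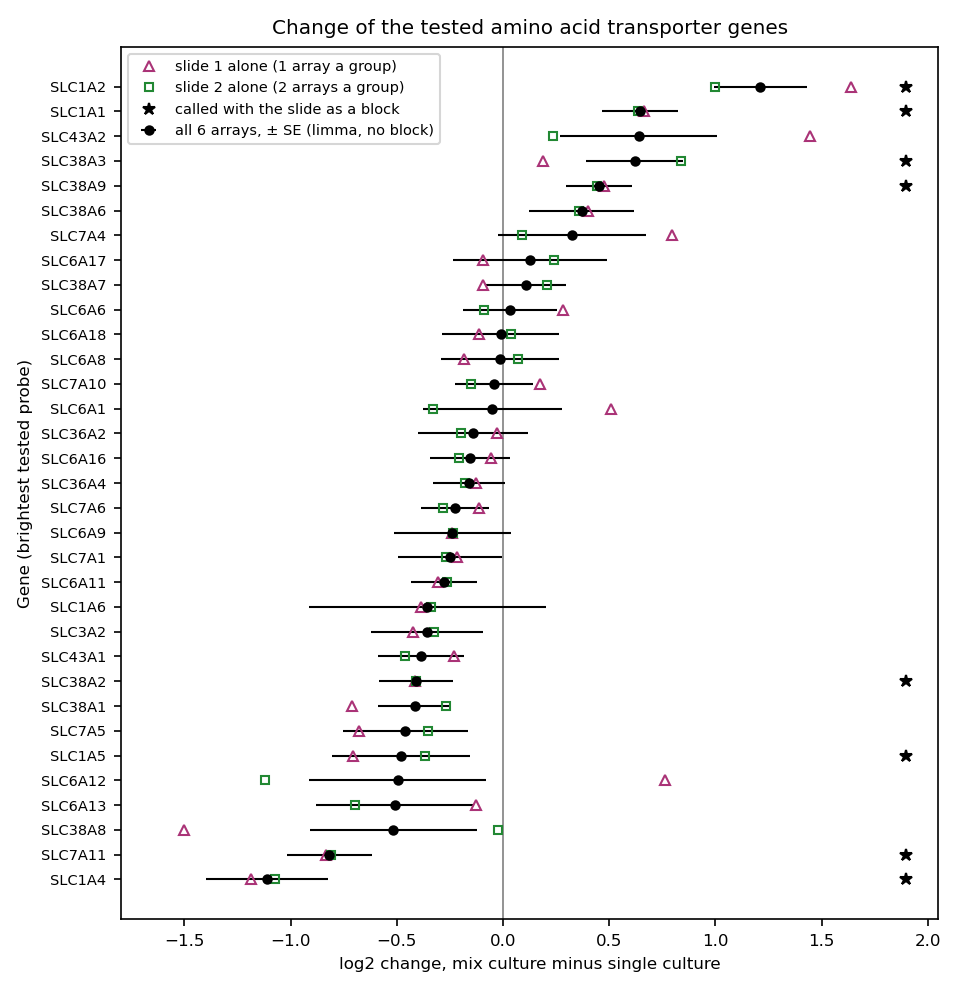
Log2 change (mix culture minus single culture, horizontal axis) of the 33 tested genes, each by its brightest tested probe (vertical axis). Black points and bars show the 6-array estimate ± SE, open triangles slide 1, open squares slide 2, and stars the 8 genes called with the slide as a block. SLC1A4 and SLC7A11 were lowest and SLC1A2 highest (its plotted values are measured differences, with single culture not well above background). For most starred genes the values of both slides lie close together.

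Among the SLC1 carriers of acidic amino acids, SLC1A1 and SLC1A2 were higher in mix culture. SLC1A1 encodes the high-affinity glutamate and aspartate carrier that is found in kidney as well as in neurons. Its normalised log2 signals were 3.82, 4.02 and 3.76 in single culture and 4.48, 4.29 and 4.76 in mix culture (replicates 1, 2 and 3), with means of 3.87 ± 0.14 and 4.51 ± 0.24. All 3 mix arrays lay above all 3 single arrays. The log2 change was 0.64 (SE 0.18), a fold of 1.56, and it was 0.67 on slide 1 and 0.63 on slide 2. limma gave an adjusted p of 0.275 without a block, 0.0395 with the slide and 0.0652 with the replicate number.

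SLC1A2 encodes the glutamate carrier known mainly from astrocytes. Its probe was dim, with intensities of 4.42, 4.31 and 5.06 in single culture, on no array well above background, and of 15.6, 12.05 and 7.29 in mix culture, on all arrays well above background. Every mix array was brighter than every single array, and the third mix array was the lowest of its group. The measured fold was 2.32 (log2 change 1.21, SE 0.22). limma gave an adjusted p of 0.0723 without a block, 0.00882 with the slide and 0.0143 with the replicate number. Single culture was not well above background, but each single array read above the lowest well-above-background signal of that array. The bound on the fold is therefore the same 2.32, a measured ratio and not a guaranteed minimum. With normexp background correction, whose offset of 50 lies above all these intensities, the log2 change was 0.0978 (adjusted p = 0.997).

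SLC1A4 and SLC1A5, the sodium-dependent exchangers of alanine, serine, cysteine and, for SLC1A5, glutamine, were lower in mix culture. For SLC1A4 the normalised log2 signals were 5.39, 5.19 and 4.46 in single culture and 4.20, 3.57 and 3.94 in mix culture. The groups did not overlap, although the third single array came close to the mix arrays. The change was -1.11 (SE 0.29), a fold of 0.463, with -1.19 on slide 1 and -1.07 on slide 2. Adjusted p-values from limma were 0.23 without a block, 0.0149 with the slide and 0.0239 with the replicate number. Leaving out each array in turn, without a block, gave changes between -1.39 and -0.92.

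For SLC1A5 the brightest probe read 3.33, 4.01 and 3.95 in single culture and 2.63, 3.59 and 3.64 in mix culture. The slide 1 arrays were the lowest of both groups, so the groups overlapped although the mix array of each slide lay below the single arrays of that slide. The change was -0.48 (SE 0.33), with -0.71 on slide 1 and -0.37 on slide 2 (limma adjusted p = 0.805 without a block and 0.0436 with the slide and 0.0819 with the replicate number). Leaving out each array in turn, without a block, gave -0.695 to -0.151. A second probe of SLC1A5 changed by -0.49 but was not called with the slide (adjusted p = 0.111). Of the remaining SLC1 genes, SLC1A6, a glutamate carrier of cerebellar neurons, had a change of -0.36 (adjusted p = 0.953; 0.0914 with the slide), and SLC1A3 was not tested.

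**Figure D3:**
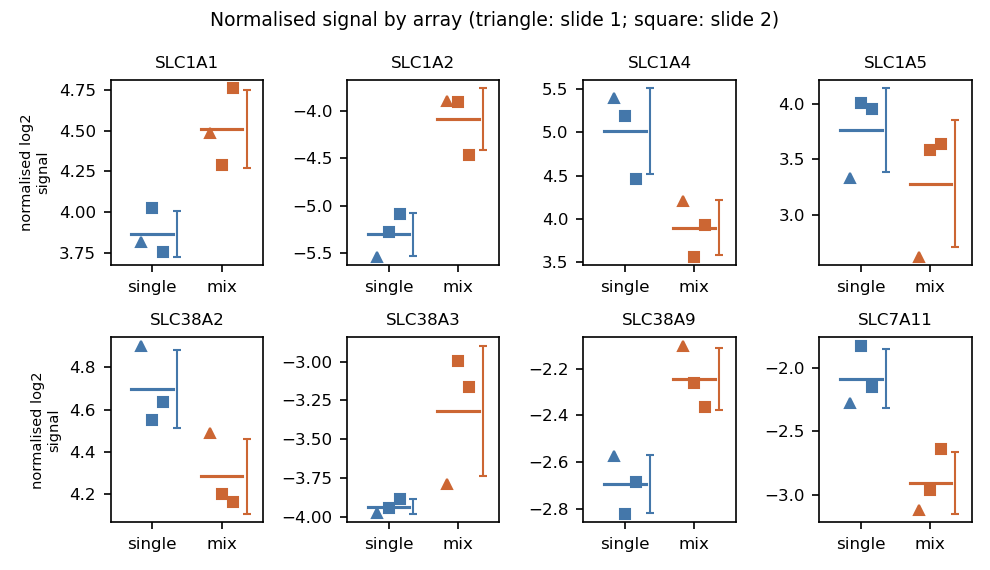
Normalised log2 signal (vertical axis, a separate range in each panel) on each single culture and mix culture array (horizontal axis) for the 8 genes called with the slide as a block. Triangles are slide 1 arrays and squares slide 2 arrays, bars are group means, and error bars are SDs over 3 arrays. The groups are apart for all but SLC1A5, where each slide by itself shows mix culture lower.

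Of the heavy chains, SLC3A2 (the CD98 heavy chain) was measured and SLC3A1 was not. The SLC3A2 signals were -0.87, -0.22 and -0.36 in single culture and -1.29, -0.68 and -0.55 in mix culture on the normalised log2 scale. Both slide 1 arrays were the low ones of their groups, and the groups overlapped. Its change was -0.36 (SE 0.26; limma adjusted p = 0.83, and 0.0848 with the slide), with -0.43 on slide 1 and -0.32 on slide 2. SLC3A1, which pairs with SLC7A9 in cystine reabsorption by the proximal tubule, had 1 probe well above background on 3 arrays and 1 on none, and the SLC7A9 probe stayed between 0.937 and 0.97 intensity units.

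The light chain with the clearest difference was SLC7A11, which takes up cystine in exchange for glutamate and so feeds glutathione synthesis. Normalised log2 signals were -2.28, -1.83 and -2.15 in single culture and -3.11, -2.96 and -2.64 in mix culture, with means of -2.09 ± 0.23 and -2.90 ± 0.24. All mix arrays lay below all single arrays. The log2 change of -0.82 (SE 0.20) corresponds to a fold of 0.567 and was nearly the same on slide 1 (-0.83) and slide 2 (-0.81). limma gave an adjusted p of 0.189 without a block, 0.0112 with the slide and 0.0236 with the replicate number. The probe is dim against the normexp offset, and with normexp the change was -0.395 (adjusted p = 0.591).

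SLC7A5 (LAT1), the exchanger that brings in leucine and other large neutral amino acids, had 3 probes, and all 3 read lower in mix culture. The brightest read 2.43, 3.06 and 2.90 in single culture and 1.75, 2.65 and 2.61 in mix culture, a change of -0.46 (SE 0.30). These ranges overlapped, since the slide 1 single array lay below both mix arrays of slide 2. The other probes changed by -0.52 and -0.25, with groups that did not overlap. No probe of SLC7A5 was called by limma, with an adjusted p of 0.787 for the brightest probe without a block and 0.0542 with the slide, and of 0.108 and 0.203 for the others with the slide.

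The other light chains gave no call. SLC7A6, an exchanger of cationic for neutral amino acids, had a pair of overlapping probes with changes of -0.22 and -0.26 (limma adjusted p = 0.819 and 0.937; 0.291 and 0.467 with the slide). SLC7A10, a carrier of small neutral amino acids, changed by -0.04 (SE 0.18; adjusted p = 0.867 with the slide), with 0.17 on slide 1 and -0.15 on slide 2. SLC7A7 was well above background on 3 arrays and SLC7A8 on 2 arrays at most, so neither was tested, and no probe carried the name SLC7A13.

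Cationic amino acid carriers of SLC7 act without a heavy chain. SLC7A1, which brings arginine and lysine into most cells, was read by a pair of probes that share most of their bases and are thus not independent. They changed by -0.25 (SE 0.24) and -0.28 (SE 0.26), and neither was called (limma adjusted p = 0.892 and 0.886; 0.265 and 0.198 with the slide). SLC7A2 was well above background on no array, with intensities of 0.843 to 0.9. SLC7A4, a relative of these carriers without a settled substrate, had a change of 0.33 (SE 0.35; adjusted p = 0.347 with the slide) that was 0.80 on slide 1 and 0.09 on slide 2.

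SLC38 carriers went in both directions. SLC38A2 (SNAT2), the sodium-coupled carrier of small neutral amino acids that is known to be induced by amino acid shortage, read 4.90, 4.55 and 4.63 in single culture and 4.49, 4.20 and 4.16 in mix culture on the normalised log2 scale. Mix arrays were all below single arrays, the slide 1 mix array by a narrow margin. Its change was -0.41 (SE 0.17), a fold of 0.752, with -0.41 on each slide (limma adjusted p = 0.576; 0.0463 with the slide and 0.0899 with the replicate number). The other probe of SLC38A2 changed by -0.29 and was not called (adjusted p = 0.146 with the slide).

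SLC38A1 (SNAT1), the close relative that also carries glutamine, had 3 probes. The brightest read 3.10, 2.99 and 3.09 in single culture and 2.39, 2.85 and 2.70 in mix culture. No mix array reached the lowest single array, and the slide 1 mix array was the lowest of all. The change was -0.42 (SE 0.17), with -0.71 on slide 1 and -0.27 on slide 2 (limma adjusted p = 0.557; 0.093 with the slide). The other probes changed by -0.48 and -0.22, and none of the 3 was called in either fit.

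SLC38A3 (SNAT3), a glutamine carrier of kidney and liver, had 4 probes, of which 3 were tested and 1 was well above background on no array. The brightest tested probe read -3.98, -3.94 and -3.89 in single culture and -3.79, -2.99 and -3.16 in mix culture. The groups were apart, but the slide 1 mix array lay close to the single arrays, so that the change of 0.62 (SE 0.23) was 0.19 on slide 1 and 0.84 on slide 2. limma gave adjusted p-values of 0.484 without a block, 0.0477 with the slide, 0.0795 with the replicate number and 0.0163 within slide 2, and with normexp the change was 0.103. The other tested probes changed by 0.17 and 0.32 with overlapping groups and were not called (adjusted p = 0.345 and 0.346 with the slide).

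SLC38A9, a lysosomal carrier that reports arginine to the kinase complex mTORC1, read -2.58, -2.82 and -2.69 in single culture and -2.10, -2.26 and -2.37 in mix culture. All mix arrays were above all single arrays. The change of 0.45 (SE 0.16), a fold of 1.37, was 0.47 on slide 1 and 0.44 on slide 2 (limma adjusted p = 0.44; 0.0394 with the slide and 0.078 with the replicate number). With normexp it was 0.148.

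2 further SLC38 genes had large changes without a call. SLC38A6 changed by 0.37 (SE 0.25; adjusted p = 0.0951 with the slide), about equally on both slides (0.40 and 0.36). For SLC38A8 the change of -0.52 (SE 0.39; adjusted p = 0.26 with the slide) came from slide 1, where it was -1.50, while it was -0.02 on slide 2. The single array of slide 1, at -2.90, stood above the 5 others, which read from -4.48 to -4.30, and leaving out that array moved the change to -0.03.

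Of the SLC6 family, 13 probes of 10 genes were tested and none was called in any of the fits named so far. SLC6A6, the taurine carrier that helps kidney cells hold their volume, had 4 probes with changes of 0.03, 0.00276, 0.00733 and -0.19. Its brightest probe read 1.86, 2.02 and 1.48 in single culture and 2.14, 1.57 and 1.74 in mix culture, and the groups overlapped. The SE was 0.22 without a block and 0.16 with the slide, and the adjusted p with the slide was 0.909 (limma). A modest change of SLC6A6 in either direction was thus not detectable with 3 arrays a group.

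SLC6A12, the betaine and GABA carrier that renal cells use against high salt, moved in opposite directions on the slides. It read 0.34, 1.596 and 0.97 in single culture and 1.104, -0.21 and 0.52 in mix culture. The mix array of slide 1 was above its single array, whereas both mix arrays of slide 2 were below their single arrays. The change was therefore 0.76 on slide 1, -1.12 on slide 2 and -0.50 over all arrays (limma adjusted p = 0.861; 0.436 with the slide). The neighbouring gene SLC6A13, a related GABA carrier, changed by -0.51 (SE 0.37), and SLC6A11, another GABA carrier, by -0.28 (SE 0.16), with adjusted p-values of 0.206 and 0.169 with the slide. SLC6A11 was the only SLC6 gene whose groups did not overlap, and it was named after its values were seen.

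**Figure D4:**
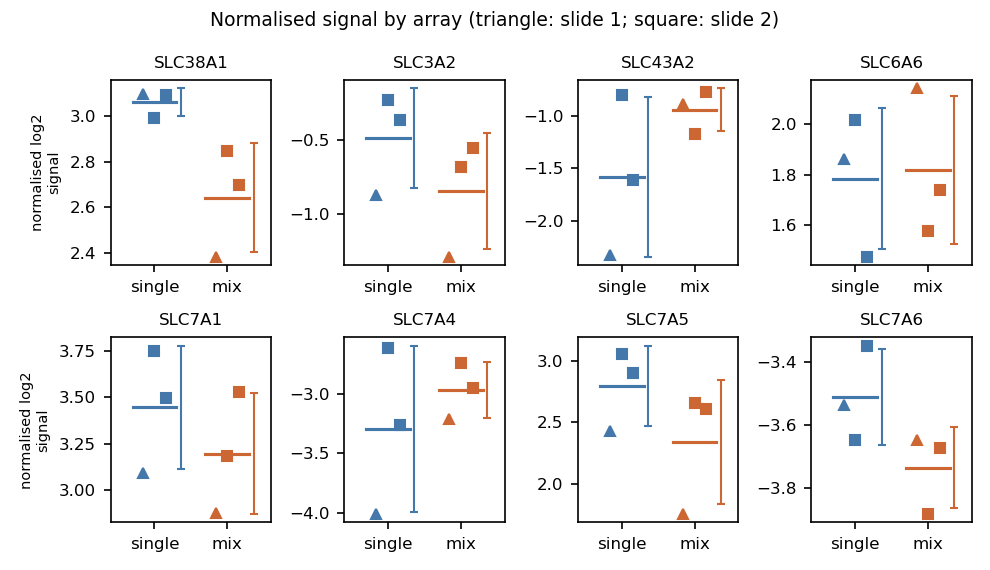
Normalised log2 signal (vertical axis, a separate range in each panel) on each array for 8 further genes, with symbols as in the plot of the called genes. SLC3A2, SLC7A1 and SLC7A5 show low slide 1 arrays in both groups, and SLC43A2 and SLC7A4 each show 1 low single array on slide 1.

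SLC43 carries branched-chain and other large neutral amino acids without sodium. SLC43A2 had the second largest positive change of the genes well above background on all 6 arrays, a change of 0.64 (SE 0.37), but its single arrays were spread widely at -2.33, -0.81 and -1.61 against -0.89, -1.17 and -0.78 in mix culture. The groups overlapped, the change was 1.45 on slide 1 and 0.23 on slide 2, and limma gave an adjusted p of 0.756 (0.21 with the slide). Its other probe changed by 0.59. SLC43A1 changed by -0.39 (SE 0.20; adjusted p = 0.708, and 0.093 with the slide), and the proton-coupled carriers SLC36A2 and SLC36A4 changed by -0.14 and -0.16 (adjusted p = 0.578 and 0.359 with the slide).

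5 lists of genes that act beside these transporters were read in the same fits, each gene by its brightest tested probe. The amino acid response list holds the transcription factor ATF4, which also acts on several SLC members, upstream parts of its pathway (EIF2AK3, EIF2AK4 and EIF2S1) and genes known to be induced with it. Of its 19 tested genes, none was called without a block, and with the slide 1 was higher and 4 were lower, with a median log2 change of -0.14. That median was -0.29 within slide 1 (1 array a group) and 0.08 within slide 2, so its sign differed between the slides. ATF4 itself changed by -0.31 (adjusted p = 0.139 with the slide). ATF3, a stress-induced transcription factor, was the 1 called higher, with a change of 0.96 (adjusted p = 0.119; 0.00663 with the slide). FGF21, a stress-induced secreted hormone, was lower by a change of -1.54 (adjusted p = 0.185; 0.00891 with the slide), and the others called lower were TRIB3, DDIT4 and EIF4EBP1 (changes of -0.90, -0.88 and -0.56).

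The tRNA synthetases, which load amino acids onto tRNAs, were mostly lower: 18 of 20 tested genes had a negative change, with a median of -0.22, while 59.66% of all names did. Their median was -0.40 within slide 1 (1 array a group) and -0.12 within slide 2. None was called without a block and 2 were with the slide, CARS (-0.65, adjusted p = 0.0306 with the slide) and MARS (-0.63). YARS changed by -0.67 and was not called (adjusted p = 0.0786 with the slide).

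Among 31 tested genes of amino acid metabolism, 1 was called without a block. This was IDO1, which degrades tryptophan, at least 6.58-fold higher in mix culture (adjusted p = 0.000649) and not well above background on any single array. Like SLC1A2, IDO1 passed the filter only through mix culture, where it is high, and it is not tested when probes must be well above background on all 6 arrays, which leaves 0 calls in the 5 lists. With the slide as a block 4 were called higher (IDO1, OAT, ASS1 and CSAD) and 4 lower (PSAT1, PSPH, PYCR1 and SHMT2). The 4 that were lower make serine, glycine or proline, with changes from -0.73 to -0.50.

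The mTORC1 amino acid sensing list, which includes SLC38A9, had a median change of 0.07 over 21 tested genes, 14 of them higher. Its only call with the slide was SLC38A9, already counted among the called members. SESN3, of the sestrin family of stress-induced proteins, had a change of 0.36 (adjusted p = 0.605; 0.0877 with the slide). The other amino acid and peptide carriers had a median of -0.18 over 14 tested genes and no call in either fit, with SLC25A15, the mitochondrial ornithine carrier, at -0.30 and SLC16A10, a carrier of aromatic amino acids, at 0.25. Within slides 1 and 2 the medians were -0.00099 and 0.07 for the sensing list, and -0.30 and -0.08 for the other carriers. For each of the 5 lists the share of calls is to be read against the 7.2% of all tested probes that the slide block called. The medians and directions are to be read against all names, with a median of -0.06 and 59.66% lower.

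**Figure D5:**
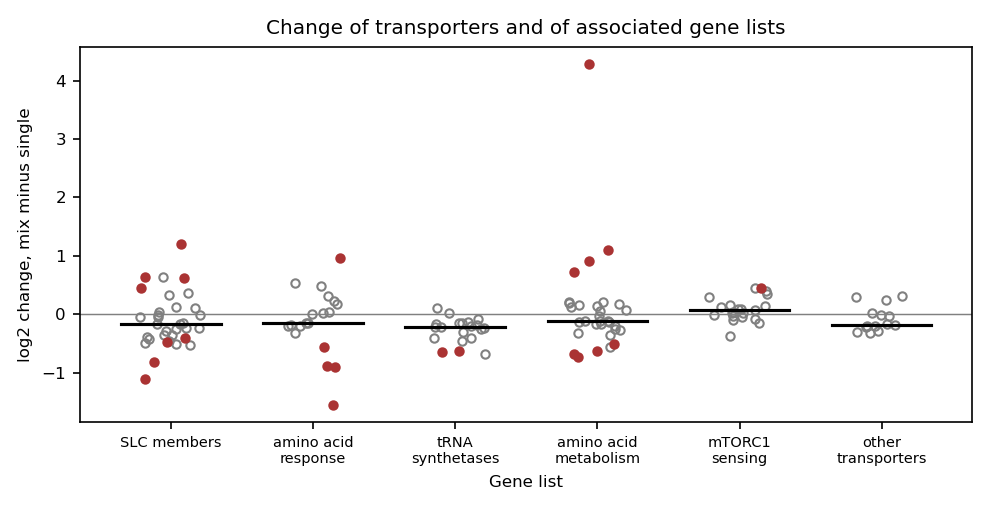
Log2 change (mix culture minus single culture, vertical axis) of each tested gene of the SLC members and of the 5 associated lists (horizontal axis). Filled points were called with the slide as a block, open points were not, and bars are medians. Most list medians lie slightly below 0, and the highest point is IDO1, for which the plotted value is not a bound.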

How the data were processed

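Per the file headers, the authors deposited spot intensity values, 1 scanner file for each array, from which Agilent Feature Extraction (11.5.1.1 on slide 1, 12.1.1.1 on slide 2) had already subtracted the background. They also deposited a table of log2 values, whose steps the sources used here do not give. In it the 2 columns of slide 1 summed to 0 within 0.011 for 100% of probes, and the median of the 4 columns of slide 2 was 0 within 0.011 for 100%, so each probe is centred within slides. Its columns for mix culture replicates 2 and 3 followed each other's scanner files (r = 0.999 and 0.993, against 0.457 and 0.459 with their own). It served as an alternative only.

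Flagged outlier spots (5 to 9 per array of 43803) were dropped, spots of a probe averaged, log2 taken and each array's 75th percentile (161 to 233 intensity units) subtracted. Groups came from the sample titles. limma 3.58.1 in R 4.3.3 (lmFit, eBayes) was tested without a block on simulated data with 200 changed probes before use. The simulated arrays held no slide effect, so this does not bear on the calls made with a block. The number of arrays limits the precision. The bound on a fold sets the bright group's mean against, per dim array, the higher of the probe's own signal and the lowest well-above-background signal (4.19 to 4.48). For SLC1A2 the probe's own signal was the higher on every single array, so that its bound equals the measured fold.

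Same-numbered arrays deviated together from their group means (correlations of 0.801, 0.53 and 0.572). Different-numbered arrays of slide 2 did so as much (0.61 and 0.632), and arrays of different slides deviated in opposite directions (-0.707 to -0.666). The correlations thus go with the slide and cannot show that the replicate number pairs the samples. The replicate block is given as an alternative only.

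Members and lists were chosen with earlier results of these data known. Genes were named by rule: SLC3 heavy chains and light chains; the 6 largest positive and the 6 largest negative changes among genes well above background on all 6 arrays; the 8 smallest p-values with the slide as a block; SLC1A4, SLC1A5, SLC7A1, SLC7A2, SLC38A1, SLC38A2 and SLC6A6; and in each list the called genes or the 2 with the smallest p. Others were added after their values were seen. All 52 symbols matched a RefSeq gene table of UU_Cfam_GSD_1.0, used for names alone.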

Additional observations from a re-analysis of the deposited data

How the results depend on the processing

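The unblocked count of called transporters stayed at 0 with no filter, with only probes on all 6 arrays, with normexp on the median spot signal, with quantile normalization, with the methods' test and when each array was left out (0 to 0). It was 8 probes and 8 genes with the slide as a block, 3 and 3 with the replicate block, 4 and 4 with replicates 2 and 3 of mix culture exchanged (chosen after seeing the data), 2 and 2 within slide 2, and 13 and 13 with the authors' table. That table is centred within slides, and the test on it spends no degree of freedom on that centring. Called genes of the 5 associated lists numbered 1, and 16 with the slide as a block, 12 with the replicate block, 8 with the exchanged replicates, 7 within slide 2, 28 with the authors' table, 0 with normexp, with the methods' test or with only probes on all 6 arrays, and 1 to 2 leaving out an array. The median change of the transporters was negative under each of these settings, from -0.225 with only probes on all 6 arrays to -0.0861 with normexp, and from -0.181 to -0.111 leaving out an array. Directions turned for SLC6A6 (-0.0899 within slide 2, -0.128 to 0.155 leaving out an array), SLC7A10 (-0.141 to 0.0678) and SLC7A4 (-0.0317 to 0.668, the lowest without single culture replicate 1), none of them called. Within slide 1, SLC6A12 turned from -0.495 to 0.762 and SLC7A10 from -0.0434 to 0.172, and SLC6A12 was not called either. With normexp, whose offset shrinks changes of dim probes by construction, SLC1A2 went from 1.21 to 0.0978, SLC38A3 from 0.62 to 0.103, SLC38A9 from 0.452 to 0.148 and SLC7A11 from -0.818 to -0.395, and the uncalled SLC38A8, SLC43A2, SLC6A12, SLC6A13, SLC7A4 and SLC7A6 also moved towards 0 by over 1.5 times, while SLC1A1, SLC1A4, SLC1A5 and SLC38A2 stayed at 0.616, -1.05, -0.495 and -0.421. The alternative used the median spot signal, since 4 of the 6 files hold no mean signal.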
